A study of Mus musculus with 6 samples.

Results

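A set of 10 genes that heart muscle raises under load or stretch was followed in hearts of adult Id conditional knockout mice and in their controls. The genes were Acta1, Ankrd1, Ankrd2, Ankrd23, Xirp1, Xirp2, Rcan1, Fhl1, Csrp3 and Abra. They were listed by symbol as known stress genes of heart muscle, with earlier results of these data known. Each was read from the probe sets annotated to that symbol alone. All 10 had exactly 1 such probe set, among 19938 genes named in this way on the array. A filter on low levels, a mean of at least 6 on the log2 scale over the 6 arrays after quantile normalization, kept 9602 genes and 9 of the 10. Ankrd2, with a mean of 5.28, did not pass and was not tested.

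Gene expression was measured on Affymetrix Mouse Gene 1.0 ST arrays, 1 for each of 6 heart samples, from 300 ng of total RNA. The mice were 6 months old, labelled as postnatal day 180. The array labelled Id conditional KO (Id cKO) came from a Tie2Cre+ Id1F/- Id3-/- heart. Another heart of the Id conditional KO was treated with mouse recombinant IGFBP3 (treated Id cKO), and a further one was its control without IGFBP3 (untreated Id cKO); the design text calls both incubated, and their labels do not spell out the alleles. Id control 1 was Id1F/+ Id3-/-, and Id control 2 was Tie2Cre+ Id1-/- Id3+/-, so both controls had lost Id alleles as well. The last array was wild type (WT). Id1 and Id3 hold back helix-loop-helix transcription factors by pairing with them, and IGFBP3 is a secreted binding protein of insulin-like growth factors. Tie2Cre recombines in the endothelium and in part of the blood lineage, not in heart muscle cells, and an Id3-/- or Id1-/- genotype is a loss in every cell of the animal. How many animals stand behind a sample is not in the labels, so any p-value here measures the spread between samples, which may be technical, and the number of arrays limits the precision.

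Heart muscle cells answer stretch and pressure by changing the genes of the sarcomere and of its anchors at the Z-disc and the intercalated disc, where neighbouring cells join. Proteins that sit on titin, the giant spring of the sarcomere, can move to the nucleus, while actin turnover frees the coactivators of serum response factor and calcium activates calcineurin and its target NFAT. Skeletal actin, cardiac ankyrin repeat protein and the calcineurin regulator Rcan1 are long-used readouts of these routes in the mouse heart.

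The arrays fell into 2 sets. The Id cKO, Id control and WT arrays had median deposited log2 values between 5.73 and 5.83, while the treated and untreated arrays had medians of 4.45 and 4.51. Deposited values were therefore compared only within a set, and values across the sets only after quantile normalization. Set and treatment history cannot be told apart. The date code in the labels was shared by the Id cKO, Id control 2 and WT arrays, while Id control 1 had a code of its own. Id1 was at 6.48 in Id cKO, against 8.10 in Id control 1, 6.41 in Id control 2 and 8.14 in WT. Id3 was at 4.69 in Id cKO, against 5.02 in Id control 1, 7.32 in Id control 2 and 7.18 in WT. Id1 was thus low in the Id1-/- and the Tie2Cre+ Id1F/- heart, and Id3 in the Id3-/- hearts. In Id control 2, labelled Id3+/-, Id3 was not below WT. It is not known here whether the probes lie inside the deleted parts. Igfbp3 was at 11.60 in Id cKO, against 7.89 in Id control 1, 7.81 in Id control 2 and 7.75 in WT. Xist and the Y-linked Eif2s3y showed a female pattern in Id cKO and both Id controls and a male pattern in the treated, untreated and WT hearts. Markers of heart muscle, such as Myh6 at 13.53 in both Id cKO and WT, were high on every array. In whole hearts, fewer cells of a type and less RNA per cell cannot be told apart.

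Short stretches of promoter are shown for 5 of the genes, because they carry motifs of factors that act in the routes named above. RefSeq promoters (GRCm38.p6) were at hand for 8 of the 10 genes, in 12 windows of 250 bases that end just before a transcription start. Xirp1 and Abra had no entry. The windows were searched on both strands for CATTCC, the core of the MCAT element bound by TEAD factors, for the CArG box bound by serum response factor, and for the MEF2 box. Matches are in capitals. The first sequence is the whole Ankrd1 window (chr19:36119845-36120094, minus strand), in which GGAATG is CATTCC on the other strand. The others are the last 120 bases before the start of Acta1 (chr8:123894776-123894895, minus strand), Fhl1 (chrX:56779563-56779682, plus strand), Ankrd23 (chr1:36535740-36535859, minus strand) and Xirp2 (chr2:67445882-67446001, plus strand), each read 5′ to 3′ along the gene.
Ankrd1: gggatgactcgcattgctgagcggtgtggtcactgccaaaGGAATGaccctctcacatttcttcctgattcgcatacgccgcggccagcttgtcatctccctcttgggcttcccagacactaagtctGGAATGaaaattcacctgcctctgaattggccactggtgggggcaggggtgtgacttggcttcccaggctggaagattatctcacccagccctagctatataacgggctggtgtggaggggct
Acta1: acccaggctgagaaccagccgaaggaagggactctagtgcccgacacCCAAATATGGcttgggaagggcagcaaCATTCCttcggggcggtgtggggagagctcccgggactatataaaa
Fhl1: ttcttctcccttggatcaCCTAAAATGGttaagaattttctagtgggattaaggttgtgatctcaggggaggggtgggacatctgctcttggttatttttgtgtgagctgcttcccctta
Ankrd23: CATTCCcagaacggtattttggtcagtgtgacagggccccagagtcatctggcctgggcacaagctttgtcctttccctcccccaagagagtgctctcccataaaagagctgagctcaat
Xirp2: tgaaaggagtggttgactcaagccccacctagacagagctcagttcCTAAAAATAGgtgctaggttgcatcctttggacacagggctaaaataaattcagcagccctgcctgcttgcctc

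Acta1 held a CArG box from 73 to 64 bases before its start and a CATTCC from 46 to 41 bases before it. Fhl1 held a CArG box from 102 to 93 bases before the first of its starts. In Ankrd1 the 2 matches to CATTCC lay from 210 to 205 and from 123 to 118 bases before the start, and in Ankrd23 1 match lay from 120 to 115 bases before the second of its starts. Xirp2 held a MEF2 box from 74 to 65 bases before its start. No match overlapped another motif. The CArG box was found in 2 of the 12 windows and in 1.48% of all 32544 windows of the same length, CATTCC in 3 of 12 and in 12.6%, and the MEF2 box in 1 of 12 and in 2.89%. A match is a description of the letters and not a site of binding.

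In the Id cKO heart, 9 of the 10 genes were higher than the mean of the Id control hearts, by a median of 0.98 on the log2 scale over all 10, where the median of all tested genes was -0.04. Rcan1, Abra and Ankrd1 were more than 2-fold above both Id controls. Ankrd23 and Xirp2 were at least 1.5-fold above both, while Acta1, Fhl1 and Xirp1 were close to Id control 2 and further above Id control 1. Csrp3 and Ankrd2 stayed near the control levels. Of all tested genes, 0.656% were 2-fold above both Id controls, against 3 of the 10 here, and at 1.5-fold it was 2.51% of all tested genes, against 5 of the 10. With Id control 1 left out, so that both arrays had the same date code, 4 of the 10 were 2-fold higher (Rcan1, Ankrd1, Abra and Xirp2), against 1.07% of all tested genes. With Id control 2 left out 6 of the 10 were, against 1.53%. The 10 genes were chosen with earlier results of these data known, so these shares describe the set and do not test it.

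Rcan1 encodes a protein that binds and restrains calcineurin, and one of its transcripts is itself driven by NFAT. It was at 11.10 in Id cKO, against 8.96 in Id control 1, 9.67 in Id control 2 and 9.24 in WT, all as deposited log2 levels. The Id cKO level thus stood above each of the other arrays of its set, by 4.4-fold over Id control 1 and 2.69-fold over Id control 2. The Id controls averaged 9.32 ± 0.50 (SD, n = 2), and the difference of 1.78 ± 0.32 (limma standard error) had an adjusted p of 0.215.

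Ankrd1, cardiac ankyrin repeat protein, sits on titin and also enters the nucleus. It was at 13.39 in Id cKO, against 12.11 in Id control 1, 12.23 in Id control 2 and 11.56 in WT. The controls lay close together, at 12.17 ± 0.09 (SD, n = 2), and Id cKO was 1.22 ± 0.14 above them (limma adjusted p = 0.169). Ankrd23, a relative that also binds titin, was at 12.01 in Id cKO, against 10.87 in Id control 1, 11.11 in Id control 2 and 10.92 in WT. Its Id cKO level was above the 3 other arrays, which lay within 0.24 of each other. Ankrd2, the third of these titin-bound ankyrin repeat proteins and mainly a skeletal muscle form, was at 5.50 in Id cKO, against 5.57 in Id control 1, 5.72 in Id control 2 and 5.67 in WT, all under the filter's level.

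The Xin proteins Xirp1 and Xirp2 bind actin at the intercalated disc, and their values differed. Xirp2 was at 11.61 in Id cKO, against 10.78 in Id control 1, 10.55 in Id control 2 and 10.70 in WT. It was above all 3 by 1.78-fold or more. Xirp1 was at 10.32 in Id cKO, against 9.67 in Id control 1, 10.17 in Id control 2 and 9.90 in WT. Its step of 0.15 over Id control 2 was smaller than the 0.50 by which the 2 controls differed.

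Abra, known as STARS, binds actin and drives the coactivators of serum response factor. It was at 9.49 in Id cKO, against 8.02 in Id control 1, 8.40 in Id control 2 and 8.32 in WT. The Id cKO heart was 2.78-fold above Id control 1 and 2.14-fold above Id control 2, with a difference from their mean of 1.29 ± 0.21 (limma standard error). Csrp3, the muscle LIM protein of the Z-disc, was at 12.50 in Id cKO, against 12.30 in Id control 1, 12.43 in Id control 2 and 12.17 in WT. These 4 levels spanned a narrow range, and the step over the control mean was 0.14 ± 0.15 (limma standard error).

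Acta1, skeletal alpha-actin, showed the widest gap between the controls among the 10 genes. It was at 13.15 in Id cKO, against 11.03 in Id control 1, 13.05 in Id control 2 and 10.86 in WT. The Id cKO and Id control 2 hearts were high, and the Id control 1 and WT hearts were low. The difference of 1.11 ± 0.85 (limma standard error) from the control mean had an adjusted p of 0.609. Fhl1, a LIM protein on the elastic part of titin, followed the same order, at 10.40 in Id cKO against 9.14 in Id control 1, 10.09 in Id control 2 and 9.05 in WT. For Acta1 and Fhl1, Id cKO was at most 1.24-fold above Id control 2 and at least 2.38-fold above Id control 1. Id control 2 shares Tie2Cre and a low Id1 level with Id cKO. Its date code is that of Id cKO but also that of WT, where both genes were low. The part of these in the levels was not tested.

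**Figure D1:**
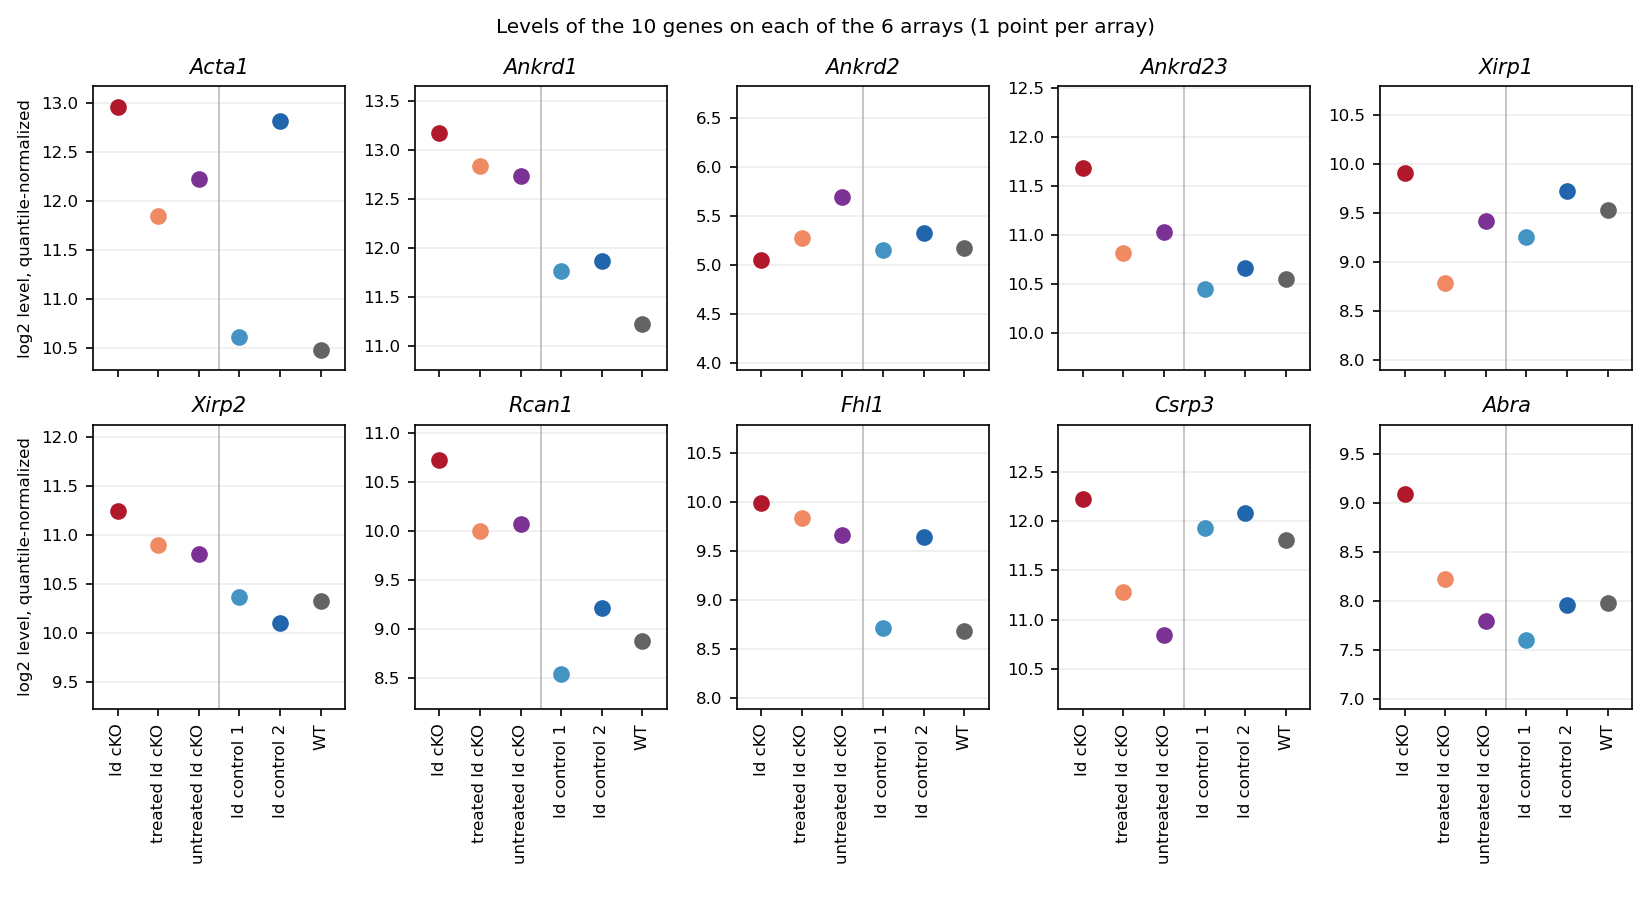
Quantile-normalized log2 level (y axis) of each of the 10 genes, 1 panel per gene and 1 point per array, with the 3 arrays of cKO genotype left of the line and Id control 1, Id control 2 and WT right of it. The Id cKO point is the highest in 9 panels, a rank not counted over all tested genes. For Acta1 the Id cKO point, at 12.96, has the Id control 2 point near its height, at 12.82.

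**Figure D2:**
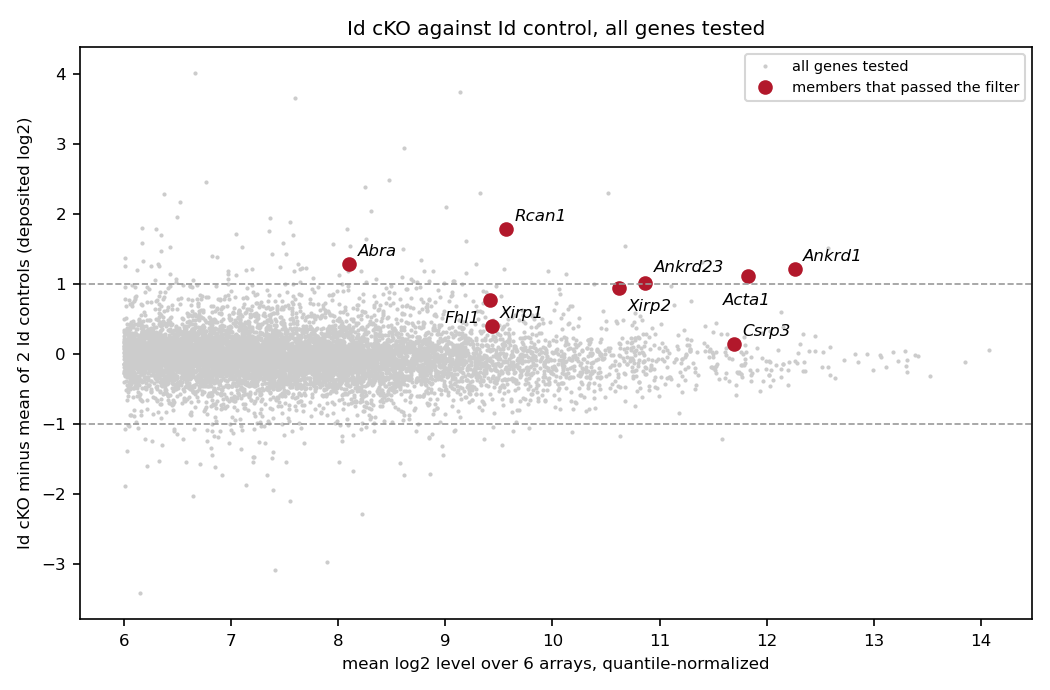
Id cKO minus the mean of the 2 Id controls in deposited log2 units (y axis) against the mean quantile-normalized log2 level over the 6 arrays (x axis), 1 point for each of the 9602 tested genes, with the 9 tested members in red. The dashed lines mark 2-fold; Rcan1 is the highest of the members, at 1.78, and Csrp3 the lowest, at 0.14.

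limma, with Benjamini-Hochberg adjustment over the 9602 genes, called 0 of the 9 tested members between Id cKO and Id control, and 5 of them, Abra, Ankrd1, Ankrd23, Rcan1 and Xirp2, had an unadjusted p under 0.05, as did 1376 of all tested genes. It called 0.0208% of all tested genes, 2 in number. Only the Id control pair gives a residual degree of freedom, so lone arrays were taken to vary like that pair, whose hearts differ in genotype and date code. Cell type markers differed between the same hearts as well, with a median difference of 0.37 for the endothelial list, -0.11 for heart muscle, -0.05 for skeletal muscle, -0.87 for atrial muscle, -0.63 for smooth muscle, -0.31 for fibroblasts, -0.44 for macrophages, -0.15 for red cells and -0.87 for adipocytes. Their part in the levels of the 10 genes was not tested.

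Against WT alone, 6 of the 10 genes were more than 2-fold higher in Id cKO, where 2.3% of all tested genes were. Acta1 was 4.90-fold, Rcan1 3.64-fold, Ankrd1 3.54-fold, Fhl1 2.55-fold, Abra 2.25-fold and Ankrd23 2.14-fold above WT. Xirp2 was higher by 0.91, Xirp1 by 0.42 and Csrp3 by 0.33 on the log2 scale, and Ankrd2 was at -0.17. The median over the 10 was 1.13, and that of all tested genes was 0.02. limma called 0 of the 9 members and 0.0208% of all tested genes. Its unadjusted p was under 0.05 for 6 members and for 1280 genes in all (adjusted p of 0.135 for Ankrd1). This comparison sets 1 array against 1, and the Id cKO heart had the female and the WT heart the male pattern of Xist and Eif2s3y. Median differences of cell type markers between these hearts were 0.64 for fibroblasts, 0.46 for the endothelium, 0.27 for smooth muscle, -0.05 for heart muscle, -0.05 for atrial muscle, -0.11 for skeletal muscle, -0.13 for macrophages, -1.30 for red cells and -0.35 for adipocytes. Their part was not tested.

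Between the Id controls and WT, 0 of the 10 genes were 2-fold higher on both control arrays, against 0.104% of all tested genes. The median difference was 0.08, and that of all tested genes was 0.07. Ankrd1 was 0.55 above WT in Id control 1 and 0.67 above it in Id control 2, the only member more than 0.5 above WT on both. Its difference of 0.61 ± 0.14 (limma standard error) had an adjusted p of 0.638. limma called 0 members and 0 genes in all (0% of those tested), and 1 member and 704 genes had an unadjusted p under 0.05. Both Id controls had the female and the 1 WT heart the male pattern of Xist and Eif2s3y, whose part was not tested.

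The 2 Id controls also differed from each other. In Id control 1, 9 of the 10 were lower than in Id control 2, with a median of -0.31, where the median over all tested genes was 0.00. Acta1 was 2-fold lower in Id control 1 (a difference of -2.01), against 0.844% of all tested genes, and 0 members were 2-fold higher, against 0.146%. Fhl1 differed by -0.95, Rcan1 by -0.71 and Xirp1 by -0.50, while Xirp2 was the 1 gene that was higher in Id control 1, by 0.23. Id control 2 also stood apart in atrial muscle markers. Myl7, the atrial regulatory light chain, was at 5.38 in Id cKO, 5.31 in Id control 1, 12.27 in Id control 2 and 5.28 in WT. Myl4, its atrial essential partner, was at 6.81 in Id cKO, 6.83 in Id control 1, 12.97 in Id control 2 and 6.69 in WT, and Sln was at 4.70 in Id cKO, 4.74 in Id control 1, 7.13 in Id control 2 and 5.18 in WT. The other 3 of the 6 atrial markers, Myh7b, Bmp10 and Stk39, did not stand out in Id control 2. Among the adipocyte markers, Adipoq was at 4.02 in Id control 1 against 6.53 in Id control 2. Plin1 was at 5.47 in Id control 1 against 6.94 in Id control 2. The remaining marker, Fabp4, did not stand out, at 10.89 in Id control 1, 10.98 in Id control 2, 10.97 in Id cKO and 11.32 in WT. The median of the fibroblast list was -0.68, Id control 1 minus Id control 2. The part of these tissues in the levels of Acta1 and Fhl1 was not tested. Of 14 skeletal muscle markers 4 passed the filter, and the defining myosins Myh1, Myh2 and Myh4 were between 4.73 and 5.44 in the first set, while Casq1 was highest in Id control 2, at 8.83 against 6.87 in WT.

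**Figure D3:**
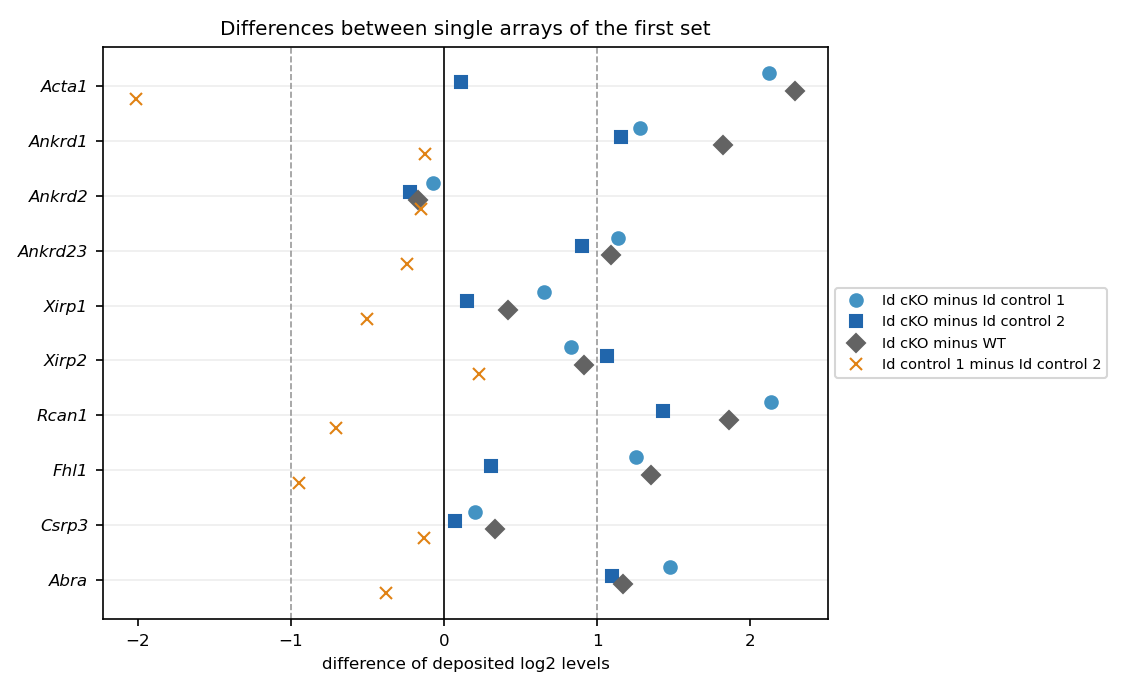
Differences of log2 level for each of the 10 genes as deposited (x axis), for Id cKO minus each Id control and minus WT, with Id control 1 minus Id control 2 as crosses and dashed lines at 2-fold. The points of Rcan1, Ankrd1 and Abra lie beyond 1 against each array, and those of Acta1 and Fhl1 do not against Id control 2.

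No member differed 2-fold with IGFBP3. Between the treated and the untreated Id cKO heart, 0 of the 10 genes were 2-fold higher and 0 were 2-fold lower, against 0.531% and 0.656% of all tested genes. The median difference was 0.03, equal to that of all tested genes at 2 decimals. Xirp1 was at 7.99 in the treated heart and 8.55 in the untreated one, and Ankrd2 at 4.39 in the treated heart and 4.89 in the untreated one, below the filter's level. Csrp3 went the other way, at 10.57 in the treated heart and 10.04 in the untreated one, a difference of 0.53 ± 0.17 (limma adjusted p = 0.211). Abra differed by 0.46 and Acta1 by -0.36, treated minus untreated, and the remaining 5 genes differed by at most 0.25. Ankrd1 and Rcan1, among the highest in Id cKO relative to its controls, differed by 0.06 and -0.01 between the treated and untreated hearts. limma called 0 members and 0% of all tested genes, and 1 member, Csrp3, and 2054 genes in all had an unadjusted p under 0.05. Between 2 lone arrays a difference has no replicate check.

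The untreated Id cKO heart was also compared with the Id controls, across the 2 sets of arrays. Besides genotype, these hearts differed in array set, incubation and the pattern of Xist and Eif2s3y, which cannot be told apart. limma took its spread from the Id control pair of the first set. Its p-values here therefore do not measure the spread between sets. After quantile normalization, Ankrd1 was at 12.73 in the untreated heart, against 11.77 in Id control 1 and 11.86 in Id control 2. It rose by 0.92 ± 0.14 (limma standard error, adjusted p = 0.022). Rcan1 was at 10.07 in the untreated heart, against 8.54 in Id control 1 and 9.22 in Id control 2, a difference of 1.19 ± 0.31 with an adjusted p of 0.0538. It was 0.0448 after cyclic loess, 0.0612 with each array centred on its median and 0.0143 with arrays centred on heart muscle markers. Xirp2 and Ankrd23 were higher by 0.57 and 0.48 with adjusted p of 0.073 and 0.0878, and both were above each Id control.

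Csrp3 moved the opposite way and was the 1 member 2-fold lower than both Id controls. It fell to 10.85 in the untreated heart, against 11.94 in Id control 1 and 12.09 in Id control 2 (a difference of -1.17 ± 0.15, limma adjusted p = 0.0186). Abra, more than 2-fold high in the Id cKO heart, differed by 0.01 in the untreated one, where it was at 7.79 against 7.60 in Id control 1 and 7.96 in Id control 2. Xirp1 differed by -0.07. Both values moved with the scaling. Abra was at -0.01 with each array centred on its median, 0.10 after cyclic loess and 0.51 with arrays centred on heart muscle markers, and Xirp1 was at -0.15, 0.00 and 0.43 under the same 3 scalings.

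In this comparison limma called 2 of the 9 tested members, against 29.2% of all tested genes. The 2-fold count was 0 members higher, against 4.54% of genes, and 1 lower, against 4.05%. The share of members was near the background of a comparison that crosses the sets. Cell type markers differed between the same hearts, with a median difference of -0.39 for the 9 heart muscle markers, -0.34 for skeletal muscle, -1.03 for atrial muscle, -0.11 for smooth muscle, 0.57 for fibroblasts, 0.57 for the endothelium, 0.36 for macrophages, 1.83 for red cells and -0.39 for adipocytes. The untreated heart had the male and both Id controls the female pattern of Xist and Eif2s3y. The part of these in the differences was not tested. Each array was also centred on the median of the 9 heart muscle markers, an alternative chosen after seeing the data. With it, 5 of the 9 tested members passed limma, as did 4849 of the 9602 tested genes. The 5 members were Ankrd1, Ankrd23, Xirp2, Rcan1 and, at -0.67, Csrp3. The median of all tested genes was then 0.46, and 90.0% of the genes called were higher in the untreated heart, where quantile normalization gave 45.2%.

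Over all 6 arrays after quantile normalization, Id cKO held the highest level for 9 of the 10 genes. How often it did so among all tested genes was not counted. For 5 of the 10, all 3 arrays of cKO genotype lay above the other 3, which held for 13.7% of all tested genes. For 0 members all 3 lay below, against 17.7%. Of the cKO arrays, the treated and untreated ones form the second set, while the other 3 arrays all lie in the first. This order therefore mixes genotype with array set. The gap between the lowest cKO array and the highest of the others was 0.87 for Ankrd1, 0.78 for Rcan1, 0.43 for Xirp2, 0.15 for Ankrd23 and 0.02 for Fhl1. The Fhl1 groups overlapped once each array was centred on its median. Acta1 was at 12.96 in Id cKO, 11.85 in the treated and 12.22 in the untreated heart, and the overlap came from Id control 2, at 12.82. For Xirp1 and Abra the untreated heart lay among the Id control and WT levels, although all 3 cKO arrays of Abra lay above the others, by 0.25, with arrays centred on heart muscle markers. After quantile normalization the treated and untreated levels of Csrp3 lay under all the others, at 11.28 in the treated and 10.85 in the untreated heart, against 11.81 in WT, the lowest of the others. Below the cKO arrays, the Ankrd1 levels of Id control 1 (11.77) and Id control 2 (11.86) were closer to each other than to that of WT (11.22).

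**Figure D4:**
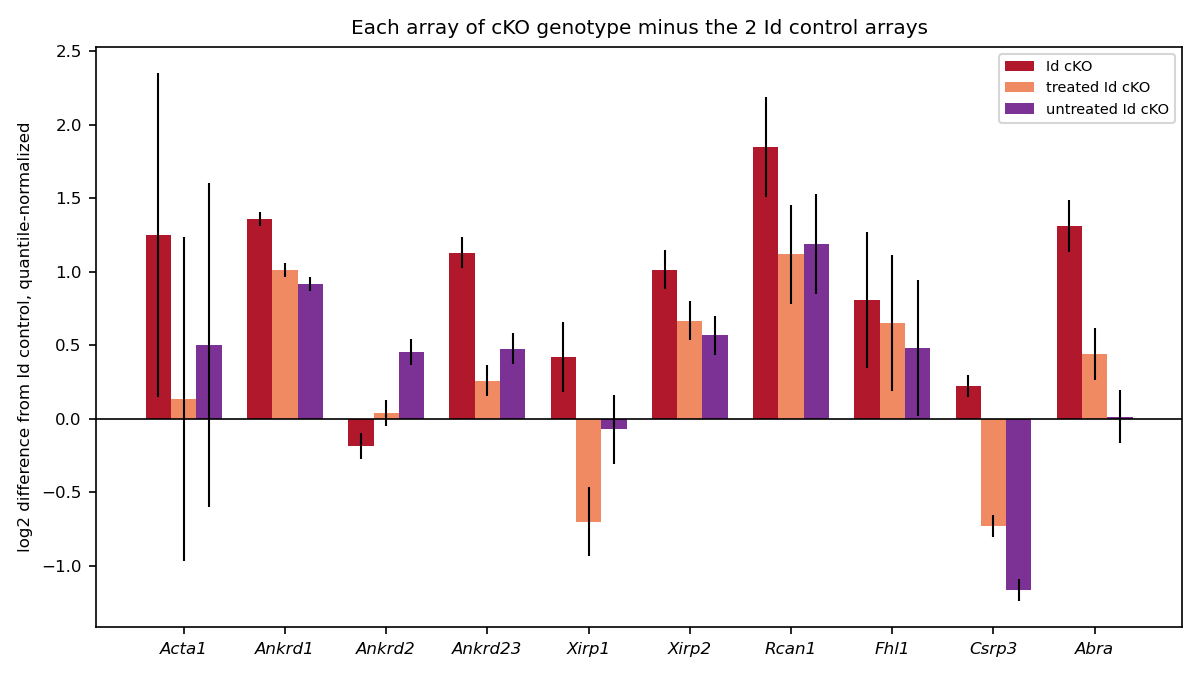
Difference of quantile-normalized log2 level (y axis) of Id cKO, treated Id cKO and untreated Id cKO from the mean of the 2 Id controls, for each gene; the black lines are no error bars but run between the differences from each of the 2 controls. All 3 bars are above 0 with lines clear of 0 for Ankrd1, Rcan1, Xirp2, Ankrd23 and, by 0.02 in the untreated heart, Fhl1, and the Csrp3 bar of the untreated heart reaches -1.17.

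Pooling the Id cKO and untreated arrays against the 2 Id controls gave 2 hearts on each side. The 2 pooled hearts differed in array set, incubation and the pattern of Xist and Eif2s3y. The pooled differences and their spread therefore hold these as well. Rcan1 was higher by 1.52 ± 0.34 and Ankrd1 by 1.14 ± 0.22 (limma adjusted p of 0.416 and 0.386), and 0 members had both cKO arrays 2-fold above both controls, against 0.437% of all tested genes. The median over the 10 genes was 0.73. limma called 0 of the 9 members and 0.0104% of all tested genes, and 4 members, Ankrd1, Ankrd23, Rcan1 and Xirp2, and 965 genes in all had an unadjusted p under 0.05. With Id control 2 left out, Acta1 passed limma, at 1.98 (adjusted p = 0.0318), in a fit that called 40 genes in all. With Id control 1 left out, Acta1 was at -0.23, and 28 genes in all were called.

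The relatives of these genes and the routes around them were read by list. The lists were written with earlier results of these data known, and limma called 0 genes of each between Id cKO and Id control. Among 24 tested genes of the titin and Z-disc apparatus, 0 were 2-fold apart from both controls (median 0.15). The largest differences were those of Myot (0.68), Pdlim1 (0.61) and Flnc (0.40), which cross-link or anchor actin at the Z-disc. Of 30 genes of the intercalated disc and costamere, 0 were 2-fold apart (median 0.06), and the furthest, Ctnna3, Dsc2 and Sspn, were at -0.55, -0.54 and -0.61. Of 9 relatives of the members, 1 was 2-fold lower, the smooth muscle actin Acta2. It was at 10.09 in Id cKO, against 11.10 in Id control 1, 11.33 in Id control 2 and 9.81 in WT. The list's median was -0.11, and Fhl2 and Fhl3, other LIM proteins, were at -0.30 and 0.61.

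The routes that are known to control such genes were tested gene by gene. Of 25 targets and partners of serum response factor, 0 were 2-fold apart (median 0.22), and the largest differences were those of Tagln (-0.89), Myh9 (0.85) and Tmsb4x (0.83). Of 23 genes of the calcineurin, NFAT and MEF2 route, 0 were 2-fold apart (median -0.08), with Nfat5 at 0.36, Hdac5 at -0.26 and Hdac9 at 0.26. Of 17 YAP and TEAD targets, 1 was 2-fold above both controls (median 0.19). That gene, Ccn2, a matrix signal of stretched tissue, was at 11.45 in Id cKO, against 9.53 in Id control 1, 10.29 in Id control 2 and 9.94 in WT. Ccn1 and Axl were at 0.97 and -0.71. Of 17 growth signals of stretched heart, Thbs4 alone was 2-fold above both controls, at 8.52 in Id cKO against 6.14 in Id control 1, 6.99 in Id control 2 and 5.89 in WT. The median was 0.10, with Timp1 at 1.13 and Agt at -2.03 ± 1.04 (limma standard error). The controls of Agt lay far apart, with 6.74 in Id control 1, 9.22 in Id control 2 and 7.67 in WT, against 5.95 in Id cKO.

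Of 142 tested genes on these lists that are no members, 5 were 2-fold lower in the treated than in the untreated Id cKO heart, against 0.656% of all tested genes, and 0 were 2-fold higher, against 0.531%. They were Thbs4 (-1.55), the actin-binding Pfn1 (-1.29), the early-response genes Nr4a1 (-1.04) and Egr1 (-1.04) and the transcription factor Mef2d (-1.03). limma called 0 of them, with an adjusted p of 0.202 or 0.203. In the untreated heart relative to the Id controls, after quantile normalization, 11 of the 17 growth signals and 8 of the 17 YAP and TEAD targets passed limma as higher and 0 as lower, against 29.2% of all tested genes in both directions. The medians of the fibroblast, endothelial, macrophage and red cell lists, given above for this comparison, were higher in the same heart. Those of the other cell type lists were lower. Their part in these calls was not tested. Of the titin and Z-disc list 4 genes passed as higher and 4 as lower, of the relatives 4 and 2, of the serum response factor list 8 and 1, and of the calcineurin list 1 and 0. Thbs4 was higher by 3.83, Timp1 by 3.16, Ccn2 by 2.86 and Egr1 by 2.83. In the intercalated disc and costamere list, 3 genes passed as higher and 9 as lower.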

How the data were processed

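The authors deposited a log2 level for every probe set on every array, made with Affymetrix Expression Console and RMA, per the submitters' processing notes; no version, build or annotation was given there. RMA corrects background, normalizes and summarises probes, but the medians of the 6 arrays differ, so they were not on 1 scale. Of 35557 probe sets, 21789 carried 1 symbol in the platform annotation, 1621 several and 12147 none. For a gene with several probe sets, as for 999 of them, the one with the highest mean stood for it. RefSeq promoters were matched by symbol.

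limma 3.58.1 (R 4.3.3) was fitted to log2 values over 6 arrays in 5 groups, or 4 with the cKO arrays pooled, with Benjamini-Hochberg adjustment over 9602 genes, a limit of 0.05 and a prior of 3.35 degrees of freedom on deposited values, and was tested on simulated data. A gene was counted by size when 2-fold from every array of the reference. Groups came from the labels; replicate numbers only name arrays. Named genes were the 10 members, list genes 2-fold from both Id controls or between treated and untreated, the 3 furthest of each list, Id1, Id3 and Igfbp3, and skeletal and atrial markers; Casq1 and the genes given for untreated against Id control were picked from these after their values were seen. The 10 members, the gene lists (titin and Z-disc, relatives, intercalated disc and costamere, serum response factor, calcineurin, YAP and TEAD, growth signals) and the tests were chosen with earlier results of these data known. Alternatives were other filters, scalings, probe set rules, fold limits, eBayes with a trend, and arrays left out.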

Additional observations from a re-analysis of the deposited data

How the results depend on the processing

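Of 520 values of single members recomputed with all arrays kept, 496 moved by less than the SD of the Id control pair or not at all, and 24 by more. Other filters and eBayes with a trend used the same levels, and each member had 1 probe set. Those settings and the probe set rule could therefore not move a member's difference, so the count of 496 does not measure stability. Values with an Id control array left out stay within that SD by construction, so they show nothing on stability; for Acta1, Id cKO minus Id control was 1.11, and 0.11 and 2.12 without Id control 1 and 2. Between Id cKO and Id control, 5 members were higher at a 1.5-fold limit (2.51% of all tested genes) and 1, Ankrd1, under the limits of the design text (2-fold and an unadjusted p under 0.001; 0.312%). Leaving out an Id control array gave 4 members without Id control 1 (1.07% of genes) and 6 without Id control 2 (1.53%), with a median of 0.60 to 1.20. Against WT, 1 member passed the limits of the design text (0.344%). Between Id control and WT the count was 0 to 2 with an Id control array left out (0.219% and 1.39%). Between the Id controls, 3 members were lower at 1.5-fold (3.07%).

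For untreated Id cKO against Id control, 1 member was 2-fold higher with median centring (4.22% of genes), 1 with cyclic loess (5.04%), 2 with centring on heart muscle markers (14.8%; chosen after seeing the data) and 2 at 1.5-fold (12.2%). That centring gave 0 members lower (0.75%), a median of 0.98 and 5 members passing limma, and the limits of the design text gave 0 lower (2.61%). Without 1 Id control array the higher count was 0 to 2 (5.71% and 6.58%) and the median 0.19 to 0.56. Genes passing limma in all numbered 2805, against 4381 with no filter, 1285 with a floor of 8 and 4849 with heart muscle centring. Pooled, 1 member was 2-fold higher with median centring (0.427%), 1 with cyclic loess (0.437%), 2 with heart muscle centring (1.21%; median 1.10) and 2 at 1.5-fold (1.74%). With 1 array left out the pooled counts were 0 to 4 higher (0.677% to 4.54%), 0 to 1 lower (0.406% to 4.05%) and 0 to 2 passing limma, with a median of 0.33 to 1.07. The 2 passed without Id cKO, where 2805 genes in all did, 1 without Id control 2 (40 genes), and 0 without Id control 1 (28) or the untreated array (2). The cause was not tested. No paired analysis was possible because the labels number no replicates.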
